A study of Mus musculus with 22 samples.

Results

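Srsf3 loss in 8N megakaryocytes was described over every gene of the authors' deposited table that sets knockout against control cells of the 8N gate. That table holds 9326 genes, the same 9326 that each of the other megakaryocyte tables lists, and it rests on 6 of the 22 samples of the series. Megakaryocytes of adult C57BL/6 mice were sorted on the surface protein CD41 and on DNA content, and cells of 8N alone were kept. The control group was 3 samples labelled Cre- control, and the knockout group was 3 samples of genotype Pf4Cre-Srsf3fl/fl, in which the platelet factor 4 promoter drives Cre in the megakaryocyte lineage against floxed Srsf3. Each sample was a pool of sorted cells, 52000 ± 32000 of them per megakaryocyte sample. Whether the controls carried the floxed alleles is not given in the sources used here, and the transgene was present in the knockouts alone, so an effect of Cre and an effect of losing Srsf3 cannot be told apart. Cells of 16N or more, the 16N-plus gate, had 3 samples per genotype made the same way and are used below for comparison. Nothing in the labels says that samples of one group were taken from different animals. The spread between samples that enters the p-values may thus be technical.

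SRSF3 is the smallest of the SR proteins, a family that binds exons through an RNA recognition motif, helps the spliceosome to choose splice sites, and hands spliced mRNA to the nuclear export receptor NXF1. Megakaryocytes are the marrow cells that make platelets: they replicate their genome without dividing, build an internal membrane store and load granules, and then extend microtubule-filled processes from which platelets are released. An 8N megakaryocyte is an early, low-ploidy stage of that course, and most of the mRNA that a platelet carries is made before release.

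The values are the authors' own comparisons and no value of a single library is among them, so no spread between libraries can be shown and levels are given per group. A log2 fold change is the authors', and its standard error (SE) was computed here from that fold change and the deposited F score. A gene is called where the authors' edgeR quasi-likelihood adjusted p is under 0.05. The deposited F scores and p-values imply 339 denominator degrees of freedom, more than the 6 samples could give. Most of the spread behind a p-value or SE was thus shared across genes. The authors' fit may also have pooled all 12 megakaryocyte libraries. A small p therefore does not show that the samples of a group agreed for that gene. Group levels in CPM, read counts scaled to library size, were estimated here from the deposited mean level and the deposited fold changes. These levels are on the authors' normalised scale, on which the 9326 genes sum to 1119430 in control and 1078800 in knockout 8N cells, so they do not read as shares of a library. The deposited tables do not name the numerator. All signs are read as knockout minus control, a reading chosen from the values of the ploidy comparisons, and every sign below would turn if that reading were wrong. Fold changes are relative to the rest of a library, so less RNA of a gene per cell and fewer cells of a type in the pool cannot be told apart.

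Srsf3 (ENSMUSG00000071172; chromosome 17, 29032628 to 29043373, plus strand, mm10) was estimated at 129 CPM in control and 162 CPM in knockout 8N cells. In the authors' deposited table it was at 0.33 (SE 0.21, adjusted p = 0.796), so no fall in its total was seen at the gene level. The deletion removes only the exons between the loxP sites, and the deposited value covers the whole gene, so it checks neither the deletion nor the reading of the signs. For the sorted identity, 11 defining megakaryocyte genes were looked at, all of which had a row. In the knockout all 11 were below 0 and 4 were called lower, so their sum cannot tell identity from the genotype effect. Their summed level was 14310.5 CPM in control and 9868 CPM in knockout 8N cells, with Itga2b, the gene of the sorting antigen CD41, at 4099.6 and 3367 CPM.

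The authors' deposited table has 134 called genes among the 9326 in 8N cells, which is 1.44% of them. Of these, 106 were lower in the knockout (1.14% of all genes) and 28 were higher (0.300%). The genes that fell were led by platelet genes and by genes of other marrow cells, and 21 of the 28 that rose encode ribosomal proteins. Changes were moderate: 31 of the lower and 11 of the higher genes had changed by at least 1 on the log2 scale. The median log2 fold change of all genes was 0.01.

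**Figure D1:**
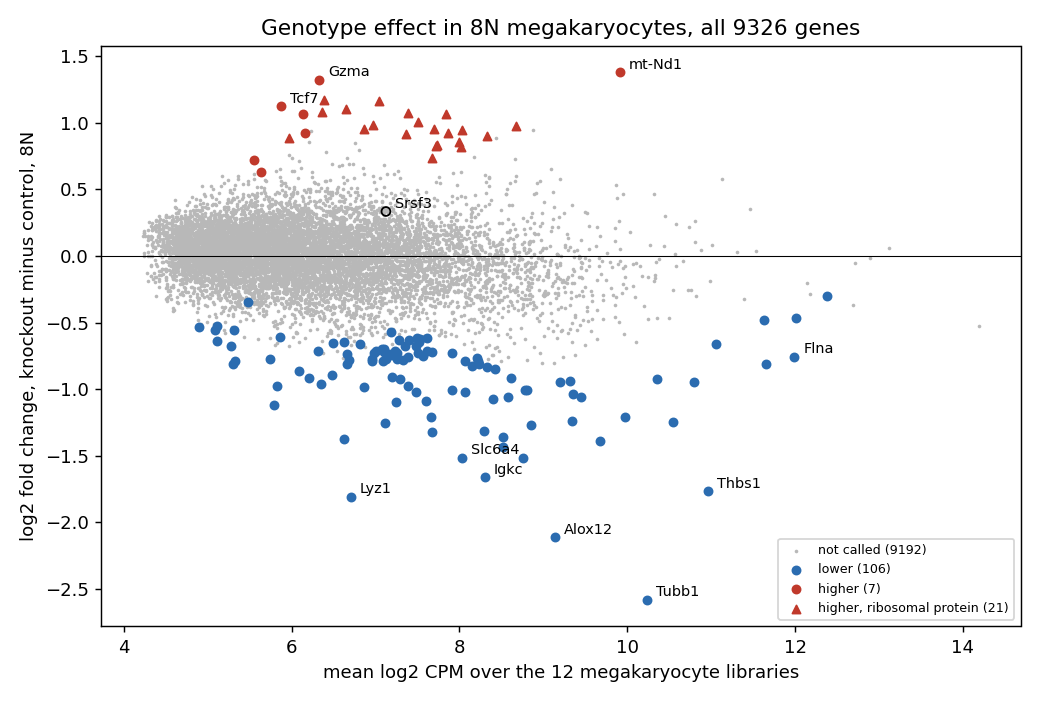
Log2 fold change of each of the 9326 genes in 8N cells (knockout minus control, vertical axis) against its mean log2 CPM over the 12 megakaryocyte libraries (horizontal axis). Each point is a gene; blue marks the 106 called lower, red the 28 called higher, and triangles the 21 ribosomal protein genes among them, which sit between 0.74 and 1.17.

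The largest fall was that of Tubb1, which encodes the beta-1 tubulin of the marginal band, the microtubule coil that gives platelets their disc shape. Tubb1 (ENSMUSG00000016255; chromosome 2, 174450695 to 174457882, plus strand, mm10) was estimated at 748 CPM in control and 125 CPM in knockout 8N cells, 5.98-fold lower. Its value in the authors' deposited table was -2.58 (SE 0.24, adjusted p = 1.68e-19). By estimated level Tubb1 was number 107 of the 9326 genes in control 8N cells and number 2280 in knockout 8N cells. Tubb2a, another beta tubulin, fell from 248 to 103 CPM, and the authors' deposited table gave -1.27 (SE 0.24, adjusted p = 4.79e-05). Tubb2b, a near-identical paralog with which reads may be shared, was at -0.23 (SE 0.08, adjusted p = 0.184) per the authors' deposited table. The other members of this list did not pass: 16 of 18 tubulin and motor genes had a row, 2 were lower and 0 higher, and the median was -0.08 against 0.01 for all genes. Among them Tubb4b was at -0.04 (SE 0.25), Tubb5 at -0.16 (SE 0.22), Tuba4a at -0.52 (SE 0.26) and Dync1h1, the dynein heavy chain, at 0.08 (SE 0.23) per the authors' deposited table.

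The sequences just before the start of Tubb1 and of Rps15a are shown because they are the genes with the smallest p among the 106 that fell and among the 21 ribosomal protein genes that rose. Each holds the 250 bases before the start in RefSeq's GRCm38.p6 annotation, written 5′ to 3′ on the strand of the gene: chr2:174450345-174450594, plus strand, for Tubb1 and chr7:118116148-118116397, minus strand, for Rps15a. The capitals mark the letters AGGAAG, a core that ETS factors such as FLI1 can bind.
Tubb1: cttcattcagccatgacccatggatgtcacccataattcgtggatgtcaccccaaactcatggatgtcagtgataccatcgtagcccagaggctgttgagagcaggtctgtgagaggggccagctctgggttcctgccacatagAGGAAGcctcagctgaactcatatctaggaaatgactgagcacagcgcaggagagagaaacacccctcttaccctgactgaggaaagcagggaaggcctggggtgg
Rps15a: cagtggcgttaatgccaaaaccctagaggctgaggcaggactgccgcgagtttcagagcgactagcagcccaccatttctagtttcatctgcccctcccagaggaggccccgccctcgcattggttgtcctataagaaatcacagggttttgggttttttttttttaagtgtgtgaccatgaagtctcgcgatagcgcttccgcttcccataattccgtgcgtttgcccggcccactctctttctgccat
Beside AGGAAG, 4 other motifs were searched on both strands, each counted on its own even where matches share letters: GATAA, known from GATA factors, then CCGGAAG, a longer ETS form, then TGAGTCA, known from AP-1 and from the NF-E2 family, and lastly TATAAA, the TATA box. Tubb1 held 1 AGGAAG and none of the others, and Rps15a held none of the 5. Promoters were matched for 55 of the 71 genes lower in both gates, and AGGAAG was in 29.1% of them, against 32.8% of the 7363 matched promoters of all tested genes. GATAA was in 21.8% and 17.2%. CCGGAAG was in 3.64% and 17.5%, TGAGTCA in 5.45% and 3.6%, and TATAAA in 14.5% and 7.47%. Of the 16 matched promoters of ribosomal protein genes called higher, 8 held AGGAAG and 5 held CCGGAAG. These shares describe letters in a window and say nothing of a factor.

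Genes of the platelet surface fell in part. Of 30 receptor genes 29 had a row, 5 were lower, 0 were higher, and the median was -0.33; 28 of the 29 were below 0. Itgb3, the beta-3 subunit of the fibrinogen receptor, fell from 2771 to 1577 CPM, at -0.81 (SE 0.13, adjusted p = 8.27e-07) per the authors' deposited table. Its partner Itga2b was at -0.28 (SE 0.08, adjusted p = 0.0573) per the authors' deposited table and did not pass. Itga6, a laminin receptor subunit, fell from 1031 to 535 CPM, at -0.95 (SE 0.20) per the authors' deposited table, and Itga2, the collagen-binding alpha-2 subunit, from 117 to 71.1 CPM, at -0.72 (SE 0.19). Gp6, the collagen receptor that signals through the Fc receptor gamma chain, fell from 109 to 63.5 CPM and was at -0.78 (SE 0.17, adjusted p = 0.000916) per the authors' deposited table. Cd226, an adhesion receptor, fell from 225 to 83.2 CPM and was at -1.43 (SE 0.22, adjusted p = 1.5e-07) there. The von Willebrand factor receptor genes were not called: in the authors' deposited table Gp1ba was at -0.33 (SE 0.23), Gp1bb at -0.20 (SE 0.19), Gp9 at -0.25 (SE 0.18) and Gp5 at -0.55 (SE 0.26).

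Cargo of the alpha granule, the store of adhesive and clotting proteins, had the lowest median of the platelet lists. Of 27 cargo genes 18 had a row, 6 were lower, 0 were higher, and the median was -0.55. Thbs1, which encodes thrombospondin 1, fell from 1843 to 542 CPM, at -1.77 (SE 0.19, adjusted p = 4.18e-14) per the authors' deposited table. Ppbp, the precursor of the platelet chemokine CXCL7, fell from 516 to 197 CPM, at -1.39 (SE 0.25, adjusted p = 1.91e-05) per the authors' deposited table. F5, coagulation factor V, fell from 1089.5 to 470.2 CPM, at -1.21 (SE 0.24) per the authors' deposited table, and F13a1, the A subunit of clot-stabilising factor XIII, from 183 to 90.0 CPM, at -1.02 (SE 0.18). Vwf, von Willebrand factor, fell less, from 4239 to 3065 CPM, at -0.47 (SE 0.09, adjusted p = 0.00026) per the authors' deposited table. Sparc, a matrix-binding glycoprotein, fell from 112 to 57.4 CPM, at -0.96 (SE 0.24) per the authors' deposited table. Pf4, whose promoter drives the Cre transgene, was estimated at 487 and 424 CPM and at -0.20 (SE 0.26, adjusted p = 0.973) per the authors' deposited table, and it was not called. F13a1 is also on the monocyte list and Sparc on the stromal list.

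Genes of granule building and release were mostly near the median of all genes. Of 30 such genes 28 had a row, 2 were lower, 0 were higher, and the median was -0.09. Slc6a4, the transporter that loads platelets with serotonin, fell from 171 to 59.8 CPM, at -1.51 (SE 0.18, adjusted p = 4.25e-12) per the authors' deposited table. Rab27a, a small GTPase of granule docking, fell from 198 to 129 CPM, at -0.62 (SE 0.18, adjusted p = 0.0437) per the authors' deposited table. Its paralog Rab27b was at -0.36 (adjusted p = 0.867) there and was not called. Nbeal2, needed for alpha granules, was at -0.18 (SE 0.26), and the sorting factors Vps33b and Vipas39 were at 0.25 (SE 0.21) and -0.20 (SE 0.21) per the authors' deposited table, none of them called.

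All 37 platelet signalling genes had a row, 4 were lower and 0 higher, with a median of -0.31. Rasa3, a GTPase-activating protein that restrains RAP1, fell from 1014 to 534 CPM, at -0.93 (SE 0.22, adjusted p = 0.00528) per the authors' deposited table. Gucy1b1, a subunit of the nitric oxide receptor, fell from 167 to 100.5 CPM, at -0.73 (SE 0.19) per the authors' deposited table, and Prkcd, protein kinase C delta, from 208 to 136 CPM, at -0.61 (SE 0.18). Tln1, the talin that switches integrins on and is also on the actin list, had the smallest fall of all genes called lower, from 4616 to 3748 CPM, at -0.30 (SE 0.08, adjusted p = 0.0339) per the authors' deposited table. The receptor-proximal genes Fcer1g, Syk and Lcp2 were at -0.09 (SE 0.16), -0.38 (SE 0.22) and -0.32 (SE 0.23) per the authors' deposited table and were not called.

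On the list of eicosanoid and lipid genes, most of them enzymes, the change lay in a few members. Of 18 such genes 16 had a row, 3 were lower, 0 were higher, and the median was -0.15. Alox12, the platelet 12-lipoxygenase, fell from 455 to 105 CPM, 4.32-fold, at -2.11 (SE 0.25, adjusted p = 4.25e-12) per the authors' deposited table. Lpin2, a phosphatidate phosphatase, fell from 212 to 105 CPM, at -1.01 (SE 0.23, adjusted p = 0.00355) per the authors' deposited table. Plek, pleckstrin, fell from 1948 to 1232 CPM, at -0.66 (SE 0.17, adjusted p = 0.0158) per the authors' deposited table. The prostaglandin and thromboxane enzymes Ptgs1 and Tbxas1 were at -0.55 (SE 0.24) and 0.22 (SE 0.25) per the authors' deposited table and were not called.

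Of 40 genes of the actin cytoskeleton and of adhesion 39 had a row, 7 were lower and 0 higher, with a median of -0.30. Myl9, a regulatory light chain of myosin II, fell from 115 to 48.3 CPM, at -1.25 (SE 0.17, adjusted p = 5.36e-10) per the authors' deposited table. Myh9, the heavy chain mutated in an inherited large-platelet disorder, fell less, from 2625 to 1877 CPM, at -0.48 (SE 0.13, adjusted p = 0.0229) per the authors' deposited table. Flna, filamin A, which ties receptors to actin, fell from 3661 to 2164 CPM, at -0.76 (SE 0.10, adjusted p = 5.36e-10) per the authors' deposited table. Parvb, beta-parvin, fell from 415 to 203 CPM, at -1.03 (SE 0.25) per the authors' deposited table, Tpm4, a tropomyosin, from 442 to 229 CPM, at -0.95 (SE 0.26), and Fhl1, a LIM-domain protein, from 164 to 97.5 CPM, at -0.75 (SE 0.18). Myl6, the essential light chain, was at 0.15 (SE 0.19, adjusted p = 0.97) per the authors' deposited table.

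None of the 22 megakaryocyte transcription factor genes was called by edgeR, all with a row, beside 1.44% of all genes called. At an unadjusted p under 0.05 there were 3 lower and 0 higher, and the median was -0.14. Gata1, which drives megakaryocyte genes, was at -0.30 (SE 0.19, adjusted p = 0.803) per the authors' deposited table, Zfpm1, its cofactor FOG1, at -0.14 (SE 0.24), and Gata2 at 0.01 (SE 0.12). Over the 8 platelet lists together, 204 different genes had a row, 28 were lower and 0 higher, with a median of -0.24. As a share the 28 are read against the 1.14% of all genes called lower; calls were more frequent among highly expressed genes in general, with the values given further on.

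**Figure D2:**
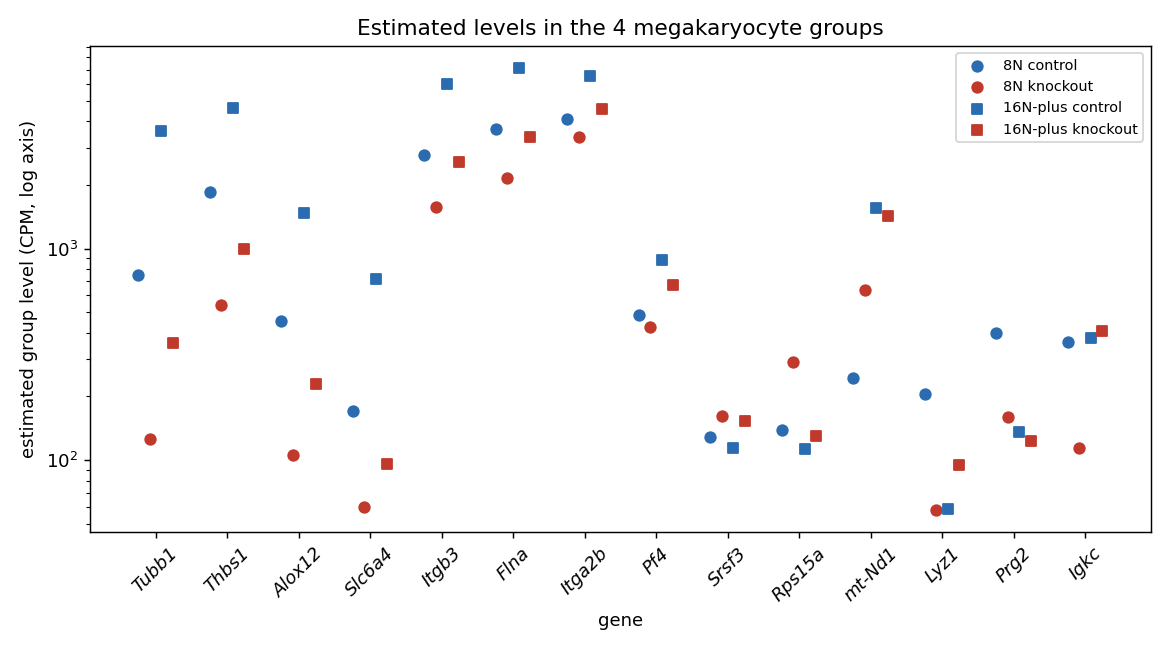
Estimated level (CPM, logarithmic axis) of 14 genes in each of the 4 megakaryocyte groups, from the authors' means and fold changes; circles are 8N, squares 16N-plus, blue control and red knockout, with no error because no library values were used. Tubb1 stands at 748 and 125 CPM in 8N control and knockout cells, while Pf4 stands at 487 and 424 and Srsf3 at 129 and 162 CPM.

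**Figure D3:**
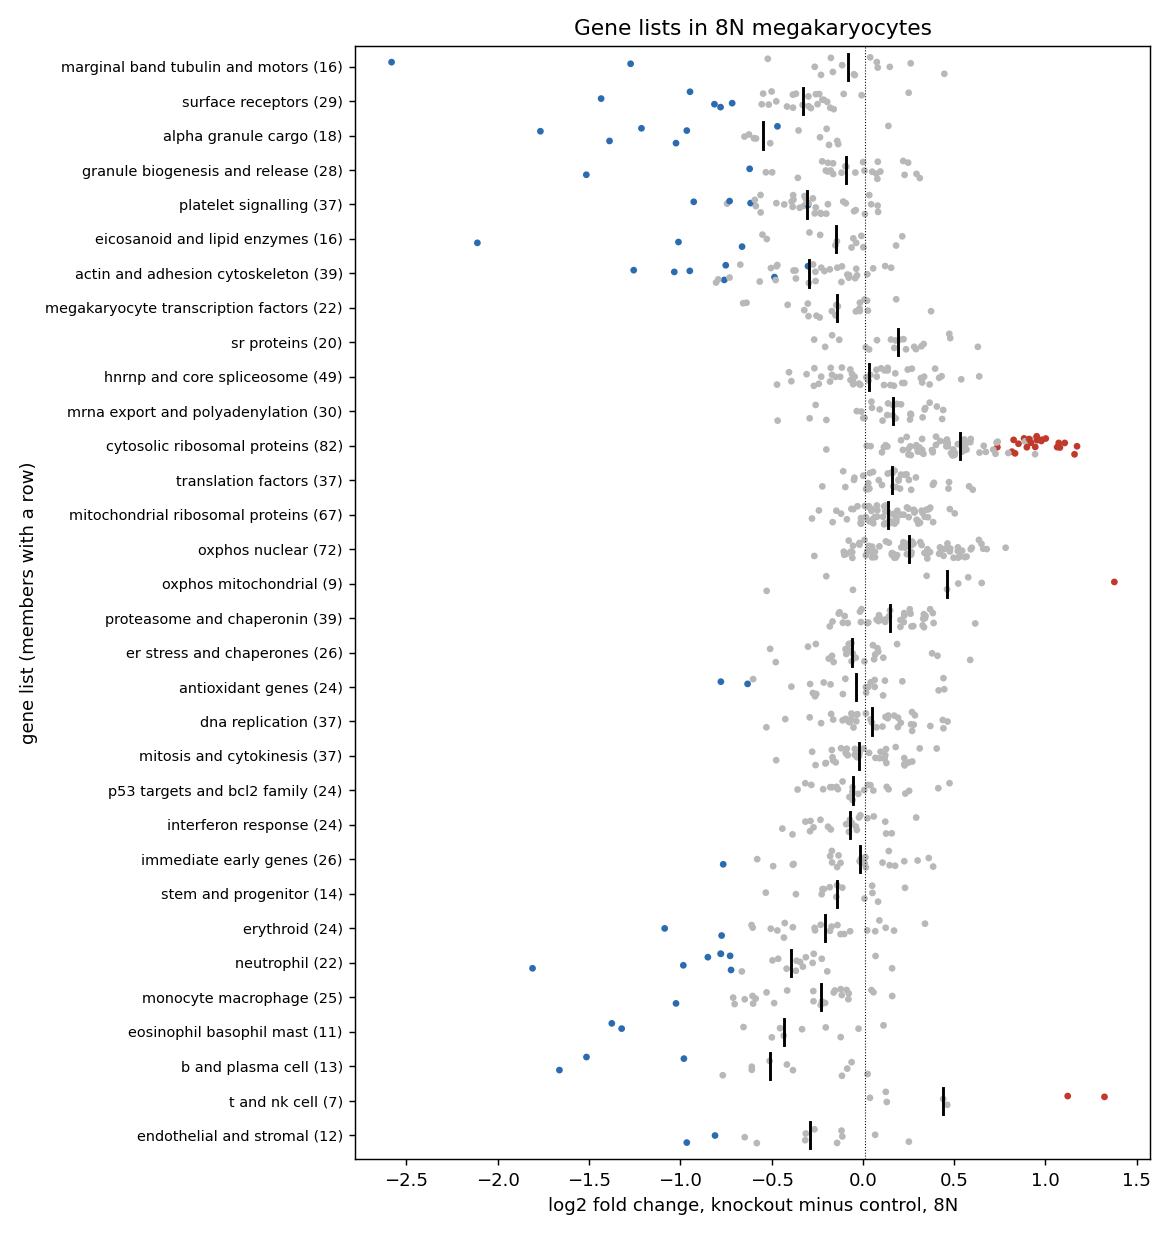
Log2 fold change (knockout minus control, 8N) of each member of the 32 gene lists; each point is a gene, blue called lower, red called higher, grey not called, black bars the list medians, and the dotted line the median of all genes at 0.01. The ribosomal protein list is the only one of the 32 with more than 2 genes called higher (21 of 82). Lists differ in size, and the T and NK cell list had 2 of 7 called higher.

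Cytosolic ribosomal protein genes moved the other way. Of 83 genes 82 had a row; 21 were higher and 0 lower, read against 0.300% of all genes called higher, and 81 of the 82 were above 0. Their median was 0.53, and at an unadjusted p under 0.05 there were 45 higher and 0 lower. Their summed level was 24636 CPM in control and 34016 CPM in knockout 8N cells. Both subunits took part: 13 of 34 small-subunit genes were called higher (median 0.57) and 8 of 48 large-subunit genes (median 0.47).

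Rps15a, a small-subunit protein gene, rose from 138 to 291 CPM, at 1.07 (SE 0.19, adjusted p = 1.13e-05) per the authors' deposited table. Rps20 rose from 164 to 329 CPM, Rps25 from 91.2 to 204, Rpl41 from 169 to 328, Rpl22 from 152 to 286 and Rps12 from 195 to 408. In the authors' deposited table these 5 were at 1.00 (SE 0.19), 1.16 (SE 0.22), 0.95 (SE 0.19), 0.91 (SE 0.19) and 1.06 (SE 0.23). The largest rise of the group was that of Rps27, from 57.9 to 131 CPM, at 1.17 (SE 0.27, adjusted p = 0.00236) per the authors' deposited table. Rps18 was at 0.83 (SE 0.18), Rps13 at 1.11 (SE 0.26), Rps15 at 0.94 (SE 0.22), Rps19 at 0.83 (SE 0.19), Rps24 at 0.85 (SE 0.22), Rps26 at 0.88 (SE 0.24), Rps14 at 0.82 (SE 0.22) and Rps3 at 0.98 (SE 0.27) per the authors' deposited table, all called higher. Of the large subunit, Rpl17 was at 0.92 (SE 0.21), Rpl21 at 0.98 (SE 0.24), Rpl34 at 0.74 (SE 0.19), Rpl37 at 1.08 (SE 0.28), Rpl32 at 0.90 (SE 0.24) and Rpl11, which can bind the p53 regulator MDM2, at 0.95 (SE 0.26), also called higher in the authors' deposited table. Rps2 was the one member below 0, at -0.20 (SE 0.27, adjusted p = 0.975) per the authors' deposited table, and Rps3a1 was at 0.29 (SE 0.26, adjusted p = 0.918). Ribosomal protein genes have many processed pseudogenes and close copies, and how the authors' counting split shared reads is not given in the sources used here, so the value of any single gene of this family is uncertain.

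Lists of translation factors, of mitochondrial ribosomal proteins, of nuclear-encoded respiratory chain proteins, and of the proteasome and chaperonin held no called gene. Each is read against 1.44% of all genes called. All 37 translation factor genes had a row and none passed in edgeR (median 0.16; 3 higher at an unadjusted p under 0.05), and in the authors' deposited table the elongation factor genes Eef1a1, Eef1b2 and Eef1d were at 0.04 (SE 0.13), 0.47 (SE 0.27) and 0.04 (SE 0.18). Of 77 mitochondrial ribosomal protein genes 67 had a row and none passed (median 0.14; 3 higher unadjusted), with Mrpl1, Mrpl2 and Mrpl3 at 0.01, 0.12 and 0.07 per the authors' deposited table. Of 77 nuclear genes of oxidative phosphorylation 72 had a row and none passed, but the median was 0.25, 61 were above 0 and 19 were higher at an unadjusted p under 0.05. The complex I genes Ndufa1, Ndufa2 and Ndufa3 were at 0.26 (SE 0.24), 0.23 (SE 0.19) and 0.34 (SE 0.18) per the authors' deposited table. All 39 proteasome and chaperonin genes had a row and none passed (median 0.15; 2 higher unadjusted), with Psma1, Psma2 and Psma3 at 0.21 (SE 0.28), 0.34 (SE 0.23) and 0.33 (SE 0.25) per the authors' deposited table.

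Of the 15 genes of the mitochondrial genome on the list 9 had a row, and mt-Nd1, a complex I subunit, was the one called. It rose from 245 to 636 CPM, at 1.38 (SE 0.29, adjusted p = 0.000608) per the authors' deposited table. The other mRNAs were at 0.65 (SE 0.28) for mt-Nd4, 0.58 (SE 0.22) for mt-Cytb, 0.52 (SE 0.23) for mt-Nd6, 0.46 (SE 0.25) for mt-Nd2, 0.35 (SE 0.19) for mt-Nd5 and -0.05 (SE 0.14) for mt-Co1 in the authors' deposited table. The median of these 7 mRNAs was 0.52, and 4 of them were higher at an unadjusted p under 0.05. The ribosomal RNA genes were at -0.20 (SE 0.14) for mt-Rnr1 and -0.53 (SE 0.47) for mt-Rnr2 in the authors' deposited table, below 0 and not called.

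Genes that work beside SRSF3 were not called, read against 1.44% of all genes called in 8N cells. Lists of this size may hold no call at that share. Of 21 genes of SR proteins and of the kinases that phosphorylate them 20 had a row, none passed in edgeR, 16 were above 0 and the median was 0.19; at an unadjusted p under 0.05, 3 were higher and 0 lower. Srsf7, the member closest to SRSF3 in sequence, had the highest value, from 236 to 365 CPM, at 0.63 (SE 0.21, adjusted p = 0.123) per the authors' deposited table. Srsf11 was at 0.48 (SE 0.18), the kinase gene Srpk2 at 0.47 (SE 0.20), Srsf2 at 0.17 (SE 0.22) and Srsf1 at -0.27 (SE 0.25) per the authors' deposited table. Of 50 hnRNP and core spliceosome genes 49 had a row and none passed (median 0.03; 3 higher and 1 lower unadjusted), with Hnrnpa0, Hnrnpa1 and Hnrnpa2b1 at -0.02 (SE 0.19), 0.32 (SE 0.21) and 0.32 (SE 0.27) per the authors' deposited table. All 30 genes of mRNA export and polyadenylation had a row and none passed (median 0.16; 1 higher unadjusted). Nxf1, the export receptor, was at 0.34 (SE 0.19), Nxt1, its partner, at -0.01, and the adaptor Alyref at 0.44 (SE 0.24) per the authors' deposited table. The tables give totals per gene and hold nothing on exon use.

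Among the stress and cell cycle lists, calls lay on the antioxidant and immediate early lists, to be read against 1.14% of all genes called lower. Of 25 antioxidant genes 24 had a row and 2 were lower: Gclm, the modifier subunit of the enzyme that starts glutathione synthesis, from 147 to 94.7 CPM, at -0.63 (SE 0.18) per the authors' deposited table, and Srxn1, sulfiredoxin, from 86.0 to 50.2 CPM, at -0.78 (SE 0.20). The regulators Nfe2l1, Nfe2l2 and Keap1 were at -0.27 (SE 0.19), 0.03 (SE 0.16) and -0.10 (SE 0.26) per the authors' deposited table, and the list's median was -0.04. Of 30 immediate early genes 26 had a row and 1, the transcription factor Klf6, was lower, from 209 to 123 CPM, at -0.76 (SE 0.21) per the authors' deposited table, while Fos, Fosb and Fosl2 were at -0.38 (SE 0.21), 0.36 (SE 0.25) and -0.12 (SE 0.16).

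No gene of the 5 lists that follow passed in edgeR, beside 1.44% of all genes. Of 39 DNA replication genes 37 had a row (median 0.05; 3 higher and 1 lower unadjusted), and the helicase genes Mcm2, Mcm3 and Mcm4 were at -0.42 (SE 0.24), -0.17 (SE 0.22) and -0.53 (SE 0.18) per the authors' deposited table. Of 38 mitosis and cytokinesis genes 37 had a row (median -0.02; 1 higher and 1 lower unadjusted), with Mki67, Top2a and Ccnb1 at -0.26 (SE 0.19), -0.08 (SE 0.26) and 0.13 (SE 0.22) per the authors' deposited table. Of 27 p53 target and BCL2 family genes 24 had a row (median -0.06; 1 higher unadjusted), with Cdkn1a, Mdm2 and Ccng1 at 0.06, 0.03 and 0.01 per the authors' deposited table. Of 30 interferon response genes 24 had a row (median -0.07; 1 higher and 2 lower unadjusted), with Ifit1 at -0.31 (SE 0.12) and Ifit2 at -0.02 per the authors' deposited table and no row for Ifit3. Of 28 genes of endoplasmic reticulum stress and chaperones 26 had a row (median -0.06; 1 higher and 2 lower unadjusted), with Hspa5, Hsp90b1 and Calr at 0.08 (SE 0.17), -0.04 (SE 0.24) and -0.19 (SE 0.18) per the authors' deposited table.

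Some markers of other marrow cells were called lower beside the platelet genes. Of 195 markers on 8 lists 125 had a row, 16 were lower and 2 higher, to be read, as is each list below, against 1.14% of all genes called lower and 0.300% called higher. A sort on CD41 and DNA content can still hold other cells, among them cells attached to a megakaryocyte, and the part of these markers in the results was not tested. Of 24 neutrophil markers 22 had a row, 6 were lower and 0 higher, and 20 were below 0 (median -0.39). Their summed level was 4816 CPM in control and 3169 CPM in knockout 8N cells. Lyz1, a lysozyme gene, fell from 204 to 58.3 CPM, at -1.81 (SE 0.22, adjusted p = 3.99e-12) per the authors' deposited table. Its neighbour and close paralog Lyz2, the main lysozyme of neutrophils and macrophages, was at -0.46 (SE 0.22, adjusted p = 0.529) per the authors' deposited table. Mpo, myeloperoxidase, fell from 188 to 95.2 CPM, Ngp from 517 to 287, Chil3 from 219 to 128, Mmp9 from 176 to 107 and Cd177 from 200.2 to 121. In the authors' deposited table these 5 were at -0.98 (SE 0.23), -0.85 (SE 0.25), -0.78 (SE 0.19), -0.73 (SE 0.20) and -0.72 (SE 0.20), while S100a8, S100a9 and Lcn2 were at -0.27 (SE 0.18), -0.49 (SE 0.19) and -0.36 (SE 0.23) and were not called.

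Of the eosinophil granule genes with a row 2 fell and 3 did not pass. Prg2, which encodes eosinophil major basic protein, fell from 399 to 159.5 CPM, at -1.32 (SE 0.18, adjusted p = 9.86e-10) per the authors' deposited table, and Epx, eosinophil peroxidase, from 177 to 68.3 CPM, at -1.37 (SE 0.26, adjusted p = 4.79e-05). The ribonuclease genes Ear1, Ear2 and Ear6 were at -0.50 (SE 0.18), -0.33 (SE 0.18) and -0.43 (SE 0.18) per the authors' deposited table and were not called. Of 20 eosinophil, basophil and mast cell markers 11 had a row and 2 were lower, with a summed level of 1002 CPM in control and 571 CPM in knockout; the defining genes Siglecf and Il5ra had no row. Of 5 immunoglobulin constant genes 3 fell: Igkc, the kappa light chain, from 362 to 115 CPM, Ighm, the mu heavy chain, from 585 to 205 CPM, and Ighg2b from 81.2 to 41.2 CPM. In the authors' deposited table they were at -1.66 (SE 0.23, adjusted p = 1.24e-09), -1.51 (SE 0.26, adjusted p = 9.53e-06) and -0.98 (SE 0.20, adjusted p = 0.000271). Igha and the joining chain gene Jchain were at -0.61 (SE 0.20) and -0.42 (SE 0.21) per the authors' deposited table and were not called. Of 18 immunoglobulin variable genes 1, Ighv11-2, was lower, 6 were above 0 and the median was -0.12. Of 29 B cell and plasma cell markers 13 had a row and 3 were lower; the defining B cell genes Cd79a and Pax5 had no row, and Cd79b was at -0.38 (SE 0.18) per the authors' deposited table. The T and NK cell markers that passed went the other way: Gzma, granzyme A, rose from 61.2 to 153 CPM, at 1.32 (SE 0.28, adjusted p = 0.000581) per the authors' deposited table, and Tcf7, a T cell transcription factor, from 46.6 to 101 CPM, at 1.12 (SE 0.19, adjusted p = 4.07e-06). Of the 30 T and NK cell markers 7 had a row, their summed level was 276 CPM in control and 452 CPM in knockout, and Cd3d, Cd3e and Cd3g had none.

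Of 30 erythroid markers 24 had a row and 2 were lower. Slc4a1, the band 3 anion exchanger of red cells, fell from 261 to 123 CPM, at -1.09 (SE 0.19, adjusted p = 5.66e-06) per the authors' deposited table, and Ank1, erythrocyte ankyrin, from 73.7 to 43.1 CPM, at -0.77 (SE 0.19, adjusted p = 0.00599). The globin genes Hba-a1, Hba-a2 and Hbb-bs, near-identical copies in part, were at -0.23 (SE 0.20), -0.18 (SE 0.17) and -0.17 (SE 0.19) per the authors' deposited table and were not called. Of 27 monocyte and macrophage markers 25 had a row and F13a1 was the one called; Csf1r, Adgre1 and Cd68 were at -0.27 (SE 0.18), -0.59 (SE 0.24) and 0.06 (SE 0.20) per the authors' deposited table, and the summed level was 7051 CPM in control and 5581 CPM in knockout. Of 20 endothelial and stromal markers 12 had a row and 2 were lower, Sparc and the chemokine gene Cxcl12, which went from 117 to 67.0 CPM, at -0.81 (SE 0.23) per the authors' deposited table; the endothelial genes Cdh5, Kdr and Flt4 were at -0.58 (SE 0.19), -0.32 (SE 0.18) and -0.27 (SE 0.15). Of 19 stem and progenitor markers 14 had a row and none passed in edgeR (median -0.14; 1 lower unadjusted), with Kit at -0.23 (SE 0.26), Cd34 at 0.08 (SE 0.13) and no row for Flt3 in the authors' deposited table.

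**Figure D4:**
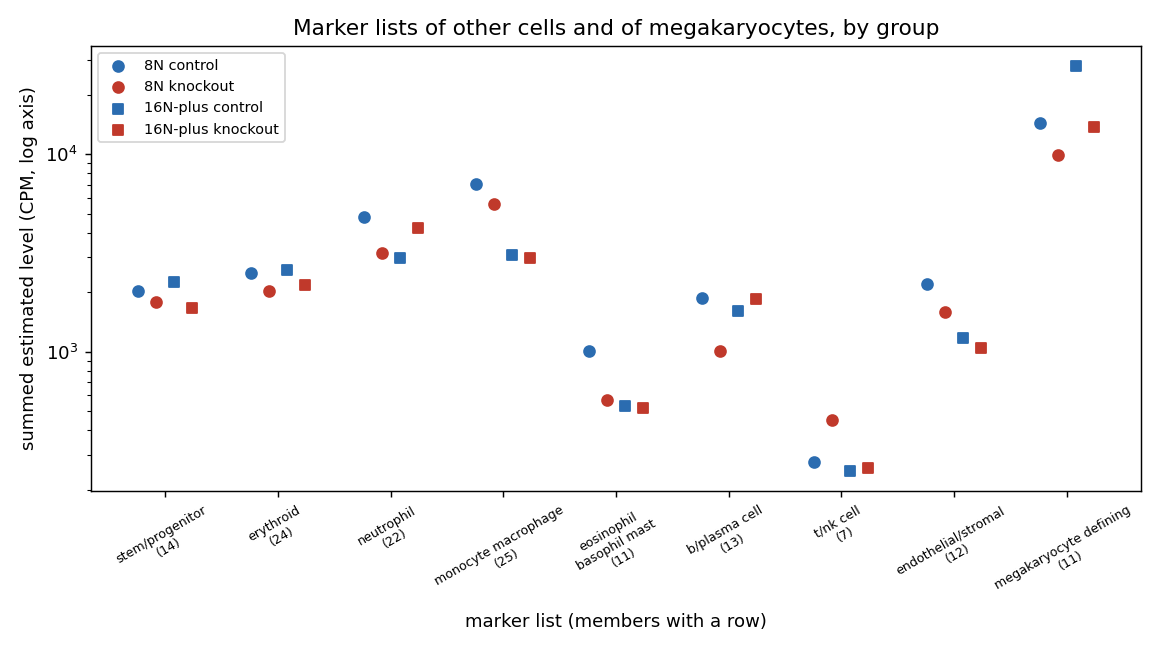
Summed estimated level (CPM, logarithmic axis) of 8 marker lists of other cells and of the 11 defining megakaryocyte genes in the 4 megakaryocyte groups; circles are 8N, squares 16N-plus, blue control and red knockout. The neutrophil sum is lower in knockout than in control 8N cells (3169 against 4816 CPM) and higher in knockout than in control 16N-plus cells (4221 against 2973 CPM).

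Genes outside the lists made up much of the rest. Mmp19, a metalloproteinase gene, fell from 94.0 to 44.0 CPM, at -1.09 (SE 0.14, adjusted p = 5.36e-10) per the authors' deposited table. Cald1, caldesmon, fell from 157 to 67.7 CPM, at -1.21 (SE 0.17) per the authors' deposited table, Tspan9, a platelet tetraspanin, from 101 to 51.7 CPM, at -0.97 (SE 0.16), and Plxna4, a plexin, from 222 to 86.4 CPM, at -1.36 (SE 0.22). Tsc22d1, a leucine zipper protein gene, fell from 799 to 337 CPM, at -1.25 (SE 0.22) per the authors' deposited table. Lmna, which encodes the A-type lamins of the nuclear envelope, fell from 245 to 98.7 CPM, at -1.31 (SE 0.22, adjusted p = 2.19e-06) per the authors' deposited table. Itln1, an intelectin, fell from 87.3 to 40.1 CPM, at -1.12 (SE 0.18, adjusted p = 1.34e-06) per the authors' deposited table. Among the genes that rose outside the ribosomal list was Coro2a, a coronin, from 56.2 to 117 CPM, at 1.06 (SE 0.23, adjusted p = 0.00153) per the authors' deposited table. Pfdn5, a prefoldin subunit, was at 0.92 (SE 0.23), Wdr74, a ribosome assembly factor, at 0.63 (SE 0.18) and 2410006H16Rik at 0.72 (SE 0.20), also called higher.

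The genotype effect of the 16N-plus gate was set beside that of the 8N gate, since the 2 gates were separate libraries. In 16N-plus cells 291 genes were called lower (3.12% of all genes) and 36 higher (0.386%) in the authors' deposited table. Of the 106 genes lower in 8N cells 71 were also called lower in 16N-plus cells, which is 67.0% of the 8N genes and 24.4% of the 16N-plus genes. These 71 had a median log2 fold change of -0.79 in 8N cells and -1.56 in 16N-plus cells. For 69 of the 71 the log2 fold change was more negative in 16N-plus cells than in 8N cells. Of the 71, 25 are on a platelet list and 3 on a list of other cells; of all 9326 genes 204 and 125 are. The other 35, set apart because they were not called lower in 16N-plus cells, had medians of -0.81 and -0.11, 14 of them were above 0 in 16N-plus cells, and 3 are on a platelet list and 13 on a list of other cells. Since the call in 16N-plus cells made the division, the medians of the sets in that gate are descriptions. Of the 35, 9 passed the test of a difference between gates given next, 8 of them with both SEs, beside 0.731% of all genes tested. That count too is a description, since the values compared by the test also made the set. Mmp9 was called lower in 8N cells and higher in 16N-plus cells, at 1.09 (SE 0.30, adjusted p = 0.0123) per the authors' deposited table. None of the 28 genes higher in 8N cells was called in 16N-plus cells, where 20 were above 0 and their median was 0.11; the ribosomal protein list had a median of 0.25 there.

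A difference between gates was tested gene by gene as the 16N-plus effect minus the 8N effect, by a normal approximation computed here with p-values adjusted by Benjamini-Hochberg, which is approximate because it takes the gates as independent. It passed for 68 of 9305 genes, which is 0.731% of them. With the SE taken as the median of 3 estimates, of which the first SE is one, 63 of these 68 passed. All 3 estimates come from the same libraries, so passing with both SEs is no separate test. Of the 71 genes lower in both gates 16 passed, all 16 with a larger fall at 16N-plus. Lpin2 fell from 212 to 105 CPM in 8N cells and from 1302 to 135 CPM in 16N-plus cells, and its difference between gates was -2.26 (SE 0.38, adjusted p = 5.47e-06). Mmp19 differed by -1.91 (SE 0.28, adjusted p = 2.35e-08), Slc6a4 by -1.39 (SE 0.31, adjusted p = 0.00191) and Tubb2a by -1.65 (SE 0.38, adjusted p = 0.00467). Tubb1 was estimated at 3579 CPM in control and 358 CPM in knockout 16N-plus cells, Thbs1 at 4616 and 994 CPM, and Alox12 at 1465 and 229 CPM. These 3 also fell in 16N-plus cells, at -3.32, -2.21 and -2.68 per the authors' deposited table. For Tubb1 the difference between gates was -0.74 (SE 0.35, adjusted p = 0.563) and did not pass. The other genes with the smallest p on this side were not called in 8N cells: Tubb2b differed by -1.68 (SE 0.27, adjusted p = 6.56e-07), Prokr1, a prokineticin receptor, by -2.08 (SE 0.34, adjusted p = 2.15e-06), Birc2, an inhibitor of apoptosis, by -1.67 (SE 0.28, adjusted p = 4.68e-06) and Nrip1, a nuclear receptor corepressor, by -1.71 (SE 0.30, adjusted p = 1.04e-05).

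On the other side 16 genes had a positive difference, of which 9 had been called lower in 8N cells and 7 had not been called there. Lyz1 was estimated at 58.6 CPM in control and 95.1 CPM in knockout 16N-plus cells, and its difference between gates was 2.51 (SE 0.31, adjusted p = 4.86e-12). Igkc was estimated at 378 and 409 CPM in 16N-plus cells and differed by 1.77 (SE 0.36, adjusted p = 0.000344), Ighm by 2.12 (SE 0.40, adjusted p = 8.81e-05), Itln1 by 1.68 (SE 0.26, adjusted p = 6.17e-07), Mmp9 by 1.82 (SE 0.36, adjusted p = 0.000344) and Chil3 by 1.61 (SE 0.33, adjusted p = 0.000362). These 6 had the smallest p among positive differences, and 5 of them are on the neutrophil or B cell lists. Those lists hold 22 and 13 of all 9326 genes. Of the 28 genes that rose in 8N cells 5 passed, 2 of them with both SEs: mt-Nd1 differed by -1.50 (SE 0.40, adjusted p = 0.025) and Gzma by -1.31 (SE 0.28, adjusted p = 0.000862). The remaining 3, Rps12, Rps13 and Pfdn5, passed only with the first SE. For the other ribosomal protein genes a difference between gates was not shown.

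**Figure D5:**
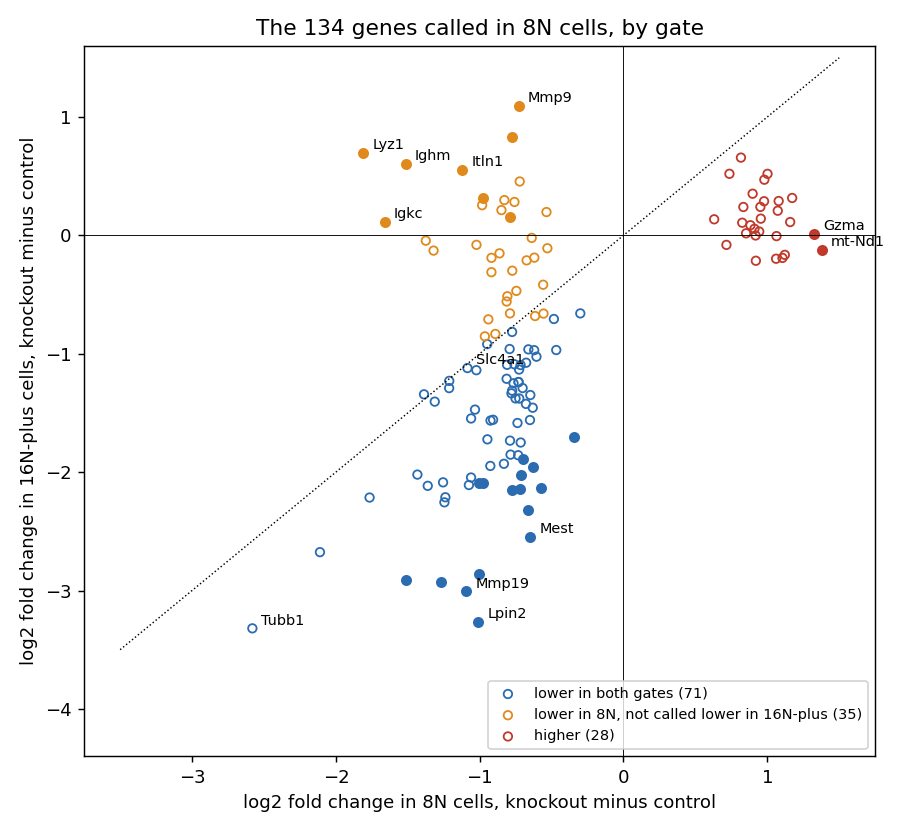
Log2 fold change (knockout minus control) in 16N-plus cells (vertical axis) against 8N cells (horizontal axis) for the 134 genes called in 8N cells; blue genes were called lower in both gates, orange ones in 8N cells and not called lower in 16N-plus cells, and red ones higher in 8N cells; filled points passed the test of a difference between gates with both SEs, and the dotted line marks equal change. Genes lower in both gates lie mostly below the line, down to -3.32 for Tubb1, and the orange genes run from -0.85 to 1.09 in 16N-plus cells.

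Calls lay mostly among highly expressed genes. With the genes in 4 bins of equal size by mean log2 CPM, from low to high, 0.257%, 0.472%, 0.944% and 4.07% were called in 8N cells, and 78 of the 106 lower genes were in the top bin. By exonic length, the shortest of 4 bins held 21 of the 28 higher genes and 67 of the ribosomal protein genes. Without the ribosomal list 6 higher genes were in that bin, and its median was 0.04 against -0.02 in the longest. By genomic span the medians ran from 0.06 in the shortest to -0.05 in the longest bin. Genes of short exonic length or span thus stood slightly higher in the knockout. Exonic length here merges all annotated exons of a gene, so it is not the length of a transcript. Within the ribosomal list the 21 called genes had a median exonic length of 2643 bases, against 1726 for the 61 not called. The part of the length trend in the ribosomal protein result was not tested.

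Near the threshold the last lower genes inside were Ngp, Epas1 and Mgam, with an edgeR adjusted p of 0.048, 0.0495 and 0.0495, and the last higher ones were Rps3, 2410006H16Rik and Wdr74, at 0.0316, 0.0322 and 0.0472. Just outside were Itgam, Cpt1a and Nhsl2 at 0.0536, 0.0536 and 0.0551 on the lower side and Rpl12, Rpl9 and Rpl35a at 0.0501, 0.0527 and 0.0551 on the higher side. The log2 fold changes of those 3 ribosomal protein genes were 0.89, 0.94 and 0.80 per the authors' deposited table, within the range of the called members.

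Platelets, measured on amplicon panels, came from 4 samples of Pf4Cre-Srsf3fl/fl mice, 3 of Cre- control mice and 3 of wild type mice. Of the 106 genes lower in 8N cells 88 had an adjusted p in the authors' deposited table for platelets, where 62 were called lower and 8 higher, beside 25.0% lower and 28.2% higher of the 12611 genes with an adjusted p. Of the 66 genes among these that were lower in both gates 54 were lower in platelets, and of the other 22 there were 8. The direction of the platelet table was chosen from its resemblance to the megakaryocyte tables, so the shared direction is not a separate result, and which platelet controls entered that table is not stated. Tubb1 was at -5.59 (SE 0.23) and Mmp19 at -7.92 (SE 0.34) in the authors' deposited table for platelets, while Slc4a1 went the other way, at 6.49 (SE 0.91).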

How the data were processed

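The submitters' processing notes name mm10 and, with neither version nor role, DESeq2 and edgeR, featureCounts of Subread, Picard, STAR and Trimmomatic. Libraries of megakaryocytes were made, per the labels' protocols, from total RNA with a stranded low-input kit, and those of platelets as amplicon panels from 10 ng of RNA. Whether counting used strand is not given in the sources used here. Per the file headers, the authors' megakaryocyte tables hold edgeR quasi-likelihood output: log2 fold change, mean log2 CPM, the F score, and p-values before and after adjustment. The authors' platelet table holds DESeq2 output: mean normalised signal, log2 fold change with its SE, the Wald score, and p-values before and after adjustment. The lowest mean log2 CPM was 4.23, so genes of low level are not in these tables, and a gene without a row may be one of them. Depth per library is unknown. In the authors' output edgeR adds a prior count to mean log2 CPM and fold changes, which lifts the levels of low genes and shrinks their changes.

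Computed here (Python 3.11.15, numpy 2.4.6, scipy 1.17.1 and pandas 2.3.3; figures with matplotlib 3.10.9): the SE as the size of the fold change over the root of F, which is unstable where F is near 0; group levels solved from the mean and the fold changes; and the difference between gates over the root of its summed squared SEs. The procedures were tested on simulated data with known answers. Gene positions and lengths came from GENCODE M21 (9303 of 9326 genes matched), and promoter sequences from RefSeq. Fixed, with earlier results of these data known, were the members and all lists; lists are described by counts and medians and no set was tested. Genes named are Srsf3, the 20 lower and 12 higher genes with the smallest p, called members and the first 3 members of each of 32 lists, the 6 genes in each direction with the smallest p for a difference between gates, and 3 genes on either side of the threshold in each direction; other names were added after their values were seen. Some genes that this rule names are not reported here.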

Additional observations from a re-analysis of the deposited data

Results flagged for a closer look

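The 30 genes given here passed the test of a difference between gates with both SEs. Of these, 26 were called in 8N cells, and the rest were among the genes with the smallest p of that test. Prg2, Rps12, Rps13 and Pfdn5, called in 8N cells, passed only with the first SE and are left out. The test is approximate, with Benjamini-Hochberg adjustment. It treats the gates as independent and takes no account of animals that both gates may share. Values are the 16N-plus effect minus the 8N effect on the log2 scale, and 8 were positive. Lyz1 differed by 2.51, Ighm by 2.12, Mmp9 by 1.82, Igkc by 1.77, Itln1 by 1.68, Chil3 by 1.61, Ighg2b by 1.29 and Defa30 by 0.94. Of these 8 genes 6 are on the neutrophil or B cell lists, which hold 22 and 13 of all 9326 genes. Lyz1 and Mmp9, 2 of the 6, are also on lists of Paneth cell or osteoclast genes given below. The summed levels of the neutrophil and B cell lists were lower in knockout than in control 8N cells. In 16N-plus cells these sums were higher in knockout than in control, and the part of those cells was not tested.

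The other 22 were negative. Those called lower in both gates were Lpin2 at -2.26, Mmp19 at -1.91, Mest at -1.90, Otud7b at -1.86, Draxin at -1.66, Tubb2a at -1.65, Neb at -1.57, Wnk4 at -1.42, Slc6a4 at -1.39, Srxn1 at -1.37, Npas4 at -1.36, Ston2 at -1.33, Itgb5 at -1.31, Sema6d at -1.19, Tspan9 at -1.12 and Dapk1 at -1.08. Tubb2b at -1.68, Prokr1 at -2.08, Birc2 at -1.67 and Nrip1 at -1.71 were not called in 8N cells. Gzma at -1.31 and mt-Nd1 at -1.50 had risen in 8N cells and were not called in 16N-plus cells.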

How the results depend on the processing

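At an adjusted p under 0.01, 81 genes were called in 8N cells, 18 higher and 63 lower, with 13 ribosomal protein genes among the higher. With Bonferroni adjustment there were 47, 9 higher and 38 lower, with 6 ribosomal protein genes higher and 15 genes of the platelet lists lower. With a log2 change of at least 1 required as well, 42 remained past both limits, 11 higher and 31 lower, with 7 ribosomal protein genes higher and 12 platelet list genes lower. Leaving out the ribosomal protein and mitochondrial lists, an alternative chosen after seeing the data, left 5 genes called higher. An adjusted p under 0.10, keeping genes above the median level, and centring on the median gene moved the counts by less than 1.5 times. Centring used a normal approximation and lowered every gene by 0.01. All 134 genes kept their call after it, and a shift of that size could not turn the direction of a called gene. In 16N-plus cells 327 genes were called as deposited, 454 after centring and 232 at an adjusted p under 0.01. The test between gates passed for 68 genes, 65 with a t distribution, 82 after centring each table and 63 with the SE taken as the median of 3 estimates, which was chosen after seeing the data; Sh2b3, Prg2, Rps12, Rps13 and Pfdn5 were the 5 lost. Of the 168 named genes 46 that were called missed Bonferroni adjustment. Ccng1 and Gata2, both close to 0 and not called, crossed 0 after centring. No called gene changed direction, but this was fixed in advance, since the alternatives other than centring left fold changes as deposited. The deposited values give no library, so leaving out each replicate in turn was not run. No paired analysis was possible because the deposited tables carry no values per library. Depth is unknown and limits low genes most.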

Other observations

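Several genes that fell in 8N cells are known from Paneth cells of the small intestine or from osteoclasts, which no list covered; the lists here were made after these values were seen and have no test. Lyz1, Itln1, Defa24 and Defa30 were all called lower, with the alpha-defensins Defa24 at -0.64 (SE 0.15, adjusted p = 0.00457) and Defa30 at -0.79 (SE 0.15, adjusted p = 9.39e-05) per the authors' deposited table. Of 38 genes of intestinal epithelium and Paneth cells 7 had a row, and the defining intestinal genes Fabp1, Fabp2, Vil1, Lgals4 and Mmp7 had none. Alpha-defensin genes are near-identical copies, so which of them the reads came from is uncertain. The osteoclast genes Acp5 and Ctsk fell from 108 to 56.9 and from 94.5 to 52.0 CPM, at -0.92 (SE 0.24, adjusted p = 0.0128) and -0.86 (SE 0.21, adjusted p = 0.00704) per the authors' deposited table. Of 10 osteoclast genes 4 had a row and 3 were called lower, Mmp9 being the third.

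Other genes outside the lists that were called lower are given here, picked after their values were seen. Fn1, fibronectin, fell from 379 to 186 CPM, Hspg2, perlecan, from 52.9 to 30.2, C3, complement component C3, from 436 to 245, Vim, vimentin, from 227 to 134, and the leukocyte integrin genes Itgb2 and Itgal from 495 to 262 and from 143 to 85.2 CPM. In the authors' deposited table they were at -1.02 (SE 0.21), -0.81 (SE 0.16), -0.83 (SE 0.22), -0.76 (SE 0.18), -0.92 (SE 0.26) and -0.74 (SE 0.18), and none of these 6 was called lower in 16N-plus cells. A difference between gates was not shown for any of these 6. By the approximate test their adjusted p ran from 0.0942 for Vim to 0.975 for Itgal. The imprinted genes Peg10 and Mest fell from 105 to 65.4 and from 60.3 to 38.5 CPM, at -0.68 (SE 0.17, adjusted p = 0.00687) and -0.65 (SE 0.15, adjusted p = 0.00367) per the authors' deposited table. The glucose transporter gene Slc2a3 fell from 437 to 185 CPM, at -1.24 (SE 0.25, adjusted p = 0.000395) there. Of 115 long noncoding RNA genes 1, 2410006H16Rik, was called higher and 0 lower, beside 0.300% and 1.14% of all genes. The 36 replication histone genes had no call, beside 1.44% of all genes, and a median of 0.08.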
